A study of Mus musculus with 36 samples.

Results

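The unbound RNA of mouse forebrain was compared between the dark phase and the light phase on 18 of the 36 arrays of the series. The unbound fraction is the supernatant left after oligodendrocyte ribosomes have been pulled down, and by the submitters' description it holds neurons and the other glia. The 6 arrays of animals awake in the dark phase were set against the mean of the 6 sleep and the 6 sleep deprivation arrays, both from the light phase and given equal weight. The members were chosen by their group labels and not by any measured value.

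All animals were adult C57BL/6 mice heterozygous for Cnp – eGFP-L10a, so that controls and test groups carry the same transgene, a tagged ribosomal protein under a promoter of oligodendrocytes. The forebrain of each animal gave 1 bound and 1 unbound array, and 18 animals gave 36 arrays in 6 groups of 6. Sleep animals had slept for at least 75% of the last 6 to 7 h and were killed at about 3 to 5 pm. Waking animals had spent a minimum of 70% of such a window awake and were killed at about 3 to 5 am. Sleep deprivation animals had mostly been awake through the dark phase and were then kept awake for 4 h of the light period with unfamiliar objects. The labels do not give the hour at which they were killed. The dark group was therefore also spontaneously awake, whereas the light groups were asleep or kept awake, and with 1 dark group the phase and spontaneous waking cannot be told apart.

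The circadian clock of mammalian cells is a loop of transcription in which the activators Arntl and Clock, or its paralogue Npas2, drive the Per and Cry genes, whose proteins then block the activators. The nuclear receptors Nr1d1 and Nr1d2 add a further arm to the loop, and output factors such as Dbp, Tef and Hlf carry it to other genes. In forebrain the Per genes and many activity genes also respond to wakefulness itself, so a comparison of dark with light that holds awake animals in the light phase separates the clock from the behaviour only in part. Immediate-early genes such as Fos and Arc rise within minutes of neuronal firing.

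The waking arrays had a lower overall level. The median log2 signal over 13924 genes was 8.12 ± 0.03 (SD, n = 6) for waking animals, 8.21 ± 0.03 for sleeping ones and 8.23 ± 0.004 for deprived ones. The waking arrays lay between 8.07 and 8.15 and the 12 light arrays between 8.18 and 8.24, so the groups did not overlap. The difference was −0.10 log2 (exact two-sided permutation test over 18564 arrangements, p = 5.39e-05, the smallest that this design can give). The lower level was known before the test, so this p only describes the separation. It treats the arrays as exchangeable, which would not hold if the groups had been normalized apart. The distribution of a waking array differed from that of a light array by a median of 0.0797 log2 (0.0651 to 0.127), and that of a sleep array from that of a sleep deprivation array by a median of 0.0270 (0.0179 to 0.0878), so the distances overlapped. The sources used here do not state whether the groups were normalized together, so changes of the genes described most fully are also given relative to the median gene, which moved by −0.10 log2. The sex-linked genes set 3 of the 18 animals apart from the rest, 2 in waking, 1 in sleep deprivation and 0 in sleep. Of 91 called genes, chosen by rule or added because they were called members of a list, 42 were not called without these animals. The changes were then measured on 15 animals. Replicates were separate animals, and precision is limited by how many arrays there are.

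**Figure D1:**
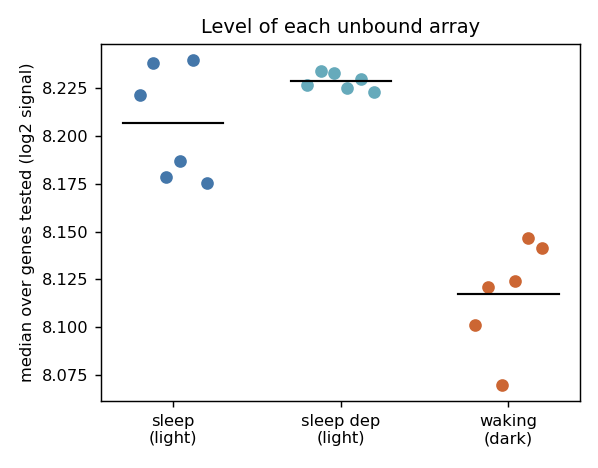
Median log2 signal over the genes tested in each of the 18 unbound arrays, 1 point per array, with the group mean as a line. The 6 waking arrays sit between 8.07 and 8.15, below all 12 light arrays.

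In the unbound RNA of waking animals the clock genes Npas2, Per2, Cry1 and Hlf were higher than the mean of the light groups. The clock-controlled protease gene Usp2 and the clock repressor gene Nr1d1 were lower. Among the rises only Npas2 passed against each light group. Per2 and Cry1 passed against sleep alone, and Hlf against sleep deprivation alone. Immediate-early genes such as Fos, Egr2 and Arc were higher too, but for most of them the difference lay against sleep alone. The synaptic protein gene Nptx2 and the neuronal surface gene Thy1 were lower than in either light group. Of 28 oxidative phosphorylation genes 11 fell by small amounts, and 0 were called once the lower level of the waking arrays was taken off.

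With limma and Benjamini-Hochberg adjustment, 1238 of 13924 genes (8.89%) were called at an adjusted p below 0.05. Of these, 149 (1.07%) rose and 1089 (7.82%) fell, and 69.6% of all genes lay below 0. The called rises had a median size of 0.54 log2 and the called falls one of −0.41 log2. After each array was centred on its median gene, 438 genes (3.15%) were called, 224 rises (1.61%) and 214 falls (1.54%). On both scales 148 genes rose (1.06%) and 214 fell (1.54%). Without the 3 animals set apart, 532 genes were called as deposited and 167 after centring.

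When genes were split by mean level into 10 groups of equal size, the brightest group fell most often as deposited, at 19.4%, and at 0.79% once arrays were centred. In the dimmest group 10.5% fell and 3.59% rose. A second probe set of the same gene gives a further reading. For called genes it lay on the same side of the median gene in 334 of 546 cases (61.2%), and for genes called on both scales in 70 of 121 (57.9%). For genes not called the share was 54.0% of 5835, so other probe sets are given below for the genes described most fully.

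**Figure D2:**
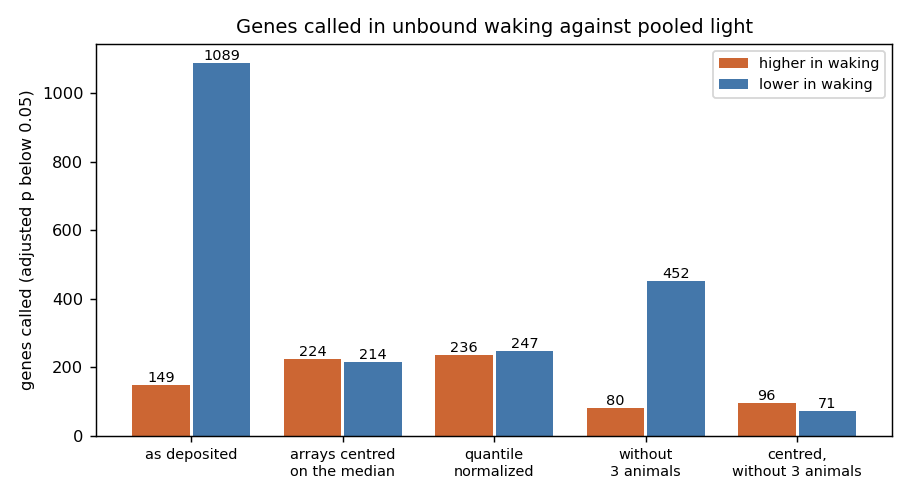
Number of genes called at an adjusted p below 0.05 in waking against the mean of the light groups, with rises and falls as separate bars, under 5 treatments of the same arrays. As deposited there are 1089 falls against 149 rises, while the directions are near balance after centring (214 against 224) and after quantile normalization (247 against 236).

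The pooled contrast joins a comparison with sleep and one with sleep deprivation, which share the waking arrays. Called against both light groups in 1 direction were 316 genes (2.27%), 39 rises (0.28%) and 277 falls (1.99%). In 11 genes (0.079%) all 6 waking arrays lay above all 12 light arrays, and in 132 genes (0.948%) they lay below, 143 in all (1.03%). Called changes of at least 2-fold were 13 rises (0.0934%) and 40 falls (0.287%).

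Of 27 core clock genes listed, 25 were tested, and 4 rose and 2 fell, where 1.07% of all genes rose and 7.82% fell. The same 4 rose after centring, with 1 fall. The median change of the list was −0.08 log2, beside −0.10 for all genes, close to each other. RefSeq (GRCm38.p6) held promoter windows, 250 bases before to 50 after a gene start, for 22 of the 27. The sequences below are the last 100 bases before the start of 3 of the called genes, 5′ to 3′ on the gene's strand. These 3 are shown because each was called as a rise in the pooled contrast and they differ in their elements. They did not pass against the same light groups. Capitals mark the E-box CACGTG, the element that the clock activators bind, and TGACG, the core of the element bound by the activity-dependent factor CREB, searched on both strands.
Cry1, chr10:85185055-85185154, minus strand: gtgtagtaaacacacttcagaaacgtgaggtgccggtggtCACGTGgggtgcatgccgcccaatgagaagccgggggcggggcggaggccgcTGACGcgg
Hlf, chr11:90390918-90391017, minus strand: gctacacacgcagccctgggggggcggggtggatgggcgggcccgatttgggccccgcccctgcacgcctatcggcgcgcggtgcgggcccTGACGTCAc
Npas2, chr1:39194172-39194271, plus strand: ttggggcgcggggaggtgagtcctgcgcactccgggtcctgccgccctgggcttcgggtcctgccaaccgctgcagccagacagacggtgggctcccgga

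In Cry1 the E-box began 60 bases and the TGACG core 8 bases before the start. In Hlf a pair of overlapping cores, 1 on each strand, began 9 and 6 bases before it. The Npas2 window held none of these letters, which says nothing about the factors. Of the called genes not shown, Per2 had no window and the Nr1d1 window held none of the elements. The window of Usp2, which fell, held a TGACG core 4 bases before the start. An E-box was found in 5 of the 22 clock genes (Bhlhe41, Ciart, Cry1, Per1 and Tef) and in 8.09% of 27025 genes with a window. The TGACG core was found in 8 of the 22 and in 23.0% of all genes, and the ROR element AGGTCA in 5 of the 22 and in 18.1% of all genes. A match is a description of the sequence and not a binding site.

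Npas2, the partner of Arntl that is abundant in forebrain, separated the dark arrays completely. Its log2 signal had a lowest value, median and highest value of 8.95, 9.05 and 9.29 in sleep, of 9.04, 9.36 and 9.54 in sleep deprivation and of 9.65, 9.75 and 9.95 among waking animals. Every waking array lay above every light array. The rise was 0.57 ± 0.09 log2 (SE, n = 6 against 12, limma, adjusted p = 0.00125), or 1.48-fold, and 0.67 relative to the median gene. It passed against sleep (0.69, adjusted p = 0.000556) and against sleep deprivation (0.44, adjusted p = 0.0102). A second, dimmer probe set of Npas2 changed by −0.09 ± 0.12.

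Cry1, a repressor of the clock and the gene taken as the marker of the phase, ran from 8.30 to 8.74 in sleep (median 8.52), from 8.72 to 9.09 in sleep deprivation (median 8.90) and from 8.84 to 9.75 in waking (median 9.13). Sleep and waking did not overlap, while sleep deprivation reached into both. All 6 waking arrays lay above the light mean. Cry1 rose by 0.45 ± 0.12 log2 (limma, adjusted p = 0.0207) or 1.37-fold, and by 0.55 relative to the median gene. The rise against sleep was 0.63 (adjusted p = 0.00732), and the 0.27 against sleep deprivation did not pass (adjusted p = 0.207). The light groups did not pass against each other (adjusted p = 0.103), so the size of the rise was not shown to differ between them. The marker thus passed in the pooled contrast and against sleep, but not against the awake animals of the light phase. Waking and sleep animals differ in both phase and state, so the phase label was not tested by Cry1.

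Per2, the period gene most responsive to wakefulness in forebrain, lay between 6.22 and 7.26 in sleep (median 6.78), between 7.35 and 8.44 in sleep deprivation (median 8.15) and between 7.84 and 9.28 in waking (median 8.15). The deprived and the waking ranges overlapped, and both lay above all sleep arrays. Per2 rose by 0.89 ± 0.20 log2 (limma, adjusted p = 0.0108), or 0.99 relative to the median gene, made up of 1.54 against sleep (adjusted p = 0.000737) and 0.23 against sleep deprivation (adjusted p = 0.569). The light groups themselves differed (adjusted p = 0.00168). Its other probe sets changed by 0.42 ± 0.24, not called, and by −0.42 ± 0.12. The latter was called as a fall when all were tested together (limma, adjusted p = 0.0245). It averaged 5.45 log2, below the median of all probe sets.

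Hlf, a factor of the clock's output, ran from 11.15 to 11.44 in sleep, from 10.75 to 11.39 in sleep deprivation and from 11.39 to 11.75 in waking. It rose by 0.38 ± 0.09 log2 (limma, adjusted p = 0.0102), or 0.48 relative to the median gene, and here the difference passed against sleep deprivation (0.48, adjusted p = 0.00537) and not against sleep (0.27, adjusted p = 0.0922). A second probe set of Hlf moved by 0.29 ± 0.10.

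Usp2, a deubiquitinating enzyme driven by the clock, lay between 10.13 and 10.45 in sleep (median 10.35), between 9.69 and 10.18 in sleep deprivation (median 9.98) and between 8.83 and 10.09 in waking (median 9.40). Of the waking arrays, 1 reached the deprived range and the others were lower than every light array. Usp2 changed by −0.70 ± 0.13 log2 (limma, adjusted p = 0.00318), or −0.61 relative to the median gene, with −0.88 against sleep and −0.53 against sleep deprivation, both called. Its second probe set, at a similar level, changed by 0.01 ± 0.15.

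Nr1d1, the repressor REV-ERBα, ran from 9.60 to 9.81 in sleep, from 9.00 to 9.57 in sleep deprivation and from 8.61 to 9.43 in waking. Waking lay below all sleep arrays and overlapped sleep deprivation. The fall of 0.42 log2 (SE 0.10, limma, adjusted p = 0.0174) was not called after centring (−0.32, adjusted p = 0.104). Without the 3 animals the change was −0.46 (adjusted p = 0.0523). Npas2, Per2, Cry1, Hlf and Usp2 stayed called in each of the 18 fits that left out 1 array and in the fit without the 3 animals.

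**Figure D3:**
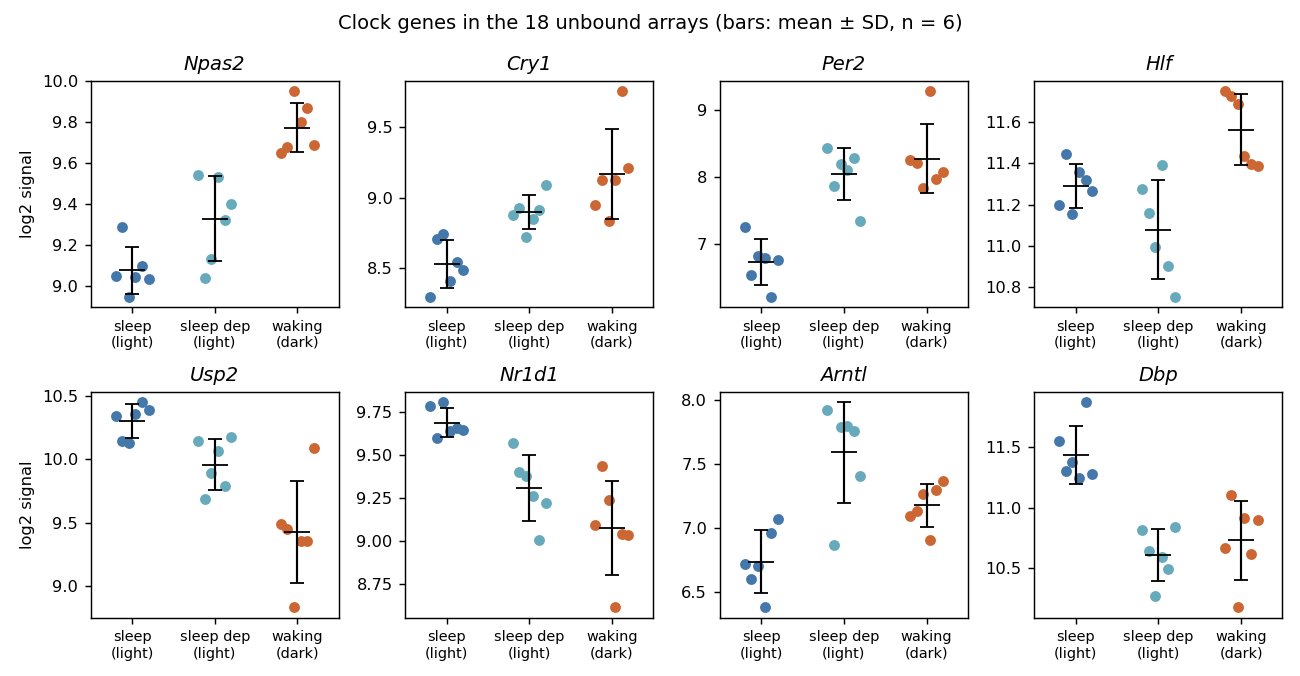
Log2 signal of 8 clock genes in the 18 unbound arrays, 1 point per animal, with mean ± SD of each group of 6. Waking stands clear of both light groups for Npas2, while for Per2 and Dbp the sleep group stands apart and the deprived group lies with waking.

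The other 19 clock genes tested were not called by the probe set that stood for them. Other probe sets were called, when all were tested together, for Nr1d2 (−0.36 ± 0.08, adjusted p = 0.00541), Per3 (0.59 ± 0.17, adjusted p = 0.0232), Bhlhe41 (−0.64 ± 0.19, adjusted p = 0.0281) and Rora (−0.44 ± 0.08, adjusted p = 0.00105, and a very dim one at −0.97 ± 0.09). For Arntl, the pooled difference was 0.01 log2 because the light groups stood on either side of waking: the median was 6.71 for sleep, 7.20 for waking and 7.78 for sleep deprivation, and sleep deprivation exceeded sleep by 0.85 log2 (adjusted p = 0.00469). Dbp had medians of 11.34 in sleep, 10.62 in sleep deprivation and 10.78 in waking, with a pooled change of −0.30 (adjusted p = 0.132) and one of −0.71 against sleep alone (adjusted p = 0.00507). Per1 (pooled change −0.02) had medians of 8.52 in sleep, 9.18 in sleep deprivation and 8.96 in waking. Per3 (0.23, adjusted p = 0.196) passed only against sleep (0.44, adjusted p = 0.0435), although all 6 waking arrays lay above its light mean.

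The remaining members ranged from −0.39 log2 (Bhlhe41) to 0.29 log2 (Nfil3). Clock (−0.17), Cry2 (−0.17), Nr1d2 (−0.12), Rora (−0.08) and Tef (0.05) lay near the change of the median gene or above it. Cry2 and Bhlhe40, a repressor gene that answers to light and activity, passed against sleep deprivation (−0.32, adjusted p = 0.0297, and −0.35, adjusted p = 0.0292) and not against sleep (−0.03 and 0.19).

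Of 34 immediate-early and activity genes, 7 rose and 3 fell, where 1.07% of all genes rose and 7.82% fell. After centring 7 rises and 1 fall were called. The list's median was −0.08 log2. Fos, a transcription factor of the first response to firing, had lowest, median and highest values of 6.44, 6.69 and 7.73 in sleep, of 9.26, 9.43 and 9.84 in sleep deprivation and of 8.41, 9.82 and 10.05 in waking. Sleep lay below both awake groups, and these overlapped. The pooled rise was 1.39 ± 0.23 log2 (limma, adjusted p = 0.00165), or 1.49 relative to the median gene, with 2.68 against sleep and 0.11 against sleep deprivation (adjusted p = 0.84). Sleep deprivation itself exceeded sleep by 2.58 log2 (adjusted p = 4.81e-06).

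Arc, a synaptic plasticity gene, was also lowest in sleep, with a range of 7.33 to 8.39 in sleep, 10.00 to 10.49 in sleep deprivation and 9.54 to 10.53 in waking. It rose by 0.91 ± 0.14 log2 in the pooled contrast (limma, adjusted p = 0.00134), as 2.09 against sleep and −0.26 against sleep deprivation (adjusted p = 0.343). Egr2 (1.39), Egr1 (0.35), Dusp1 (0.51) and Dusp6 (0.49) also rose with differences of 0.81 to 2.99 log2 against sleep and of −0.22 to −0.09 against sleep deprivation. The Egr genes encode zinc finger factors, and the Dusp genes encode phosphatases that switch off MAP kinases. With the 3 animals left out, Dusp1 changed by 0.51 (adjusted p = 0.060) and Dusp6 by 0.38 (adjusted p = 0.0601), neither called. Egr2 was not called without waking array 1 (adjusted p = 0.052).

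Btg2, a growth-restraining gene induced with the immediate-early genes, was the member of this list whose rise was large against each light group. It lay between 5.89 and 7.37 in sleep, between 6.59 and 7.54 in sleep deprivation and between 7.20 and 8.72 in waking. The waking arrays overlapped the tops of both light ranges. The rise was 1.07 ± 0.22 log2 (limma, adjusted p = 0.00659), or 1.17 relative to the median gene. It was 1.35 against sleep, and the 0.79 against sleep deprivation was not called (adjusted p = 0.0558). A second, dimmer probe set of Btg2 changed by 0.56 ± 0.22 and was not called.

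Nptx2, a secreted pentraxin that gathers AMPA receptors at synapses, was the activity gene that set the dark arrays apart from both light groups. Its lowest, median and highest values were 9.00, 9.21 and 9.53 in sleep, 9.24, 9.64 and 9.73 in sleep deprivation and 7.64, 8.19 and 8.33 in waking. No waking array reached any light array. Nptx2 changed by −1.30 ± 0.11 log2 (limma, adjusted p = 2.61e-06), or 2.47-fold, and by −1.21 relative to the median gene, with −1.14 against sleep and −1.47 against sleep deprivation. Its second probe set, at 6.2 log2 against 9.0 for the first, changed by −0.36 ± 0.25 and was not called.

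The falls of Egr3 and Inhba lay against the deprived arrays. Egr3 had medians of 10.33 in sleep, 11.28 in sleep deprivation and 10.59 in waking, so that waking lay between the light groups. It changed by −0.32 log2 pooled (limma, adjusted p = 0.0196), by −0.81 against sleep deprivation and by 0.17 against sleep (adjusted p = 0.264). Inhba, which encodes a subunit of activin, had medians of 8.79, 10.89 and 9.26 in the same order and changed by −0.60 pooled, by −1.58 against sleep deprivation and by 0.38 against sleep. Neither fall was called after centring (adjusted p = 0.139 and 0.0942). Egr3 was not called without waking array 3 (adjusted p = 0.0512) or without the 3 animals (−0.29, adjusted p = 0.0811), and Inhba lost the call in 2 of the 18 fits, at most to an adjusted p of 0.0658 without waking array 4.

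Glucocorticoid response genes gave 0 rises and 3 falls of 21, where 7.82% of all genes fell. Their median change was −0.22 log2, and the falls had the same shape. Cdkn1a, a cell cycle inhibitor gene induced by stress, ran from 8.50 to 9.10 in sleep, from 10.24 to 11.00 in sleep deprivation and from 8.87 to 9.19 in waking. The waking arrays overlapped sleep and lay below every deprived array, and the light groups differed from each other by 1.96 log2 (adjusted p = 1.15e-08). The pooled change of −0.66 ± 0.11 log2 (limma, adjusted p = 0.00178) was −1.64 against sleep deprivation and 0.32 against sleep (adjusted p = 0.117). Zbtb16, a transcription factor induced by glucocorticoids, changed by −0.56 pooled and by −0.89 against sleep deprivation. Sgk1, a kinase of the same response, changed by −0.49 pooled (adjusted p = 0.0411) and by −1.05 against sleep deprivation. Its pooled call held in 5 of the 18 fits that left out 1 array and was absent after centring (adjusted p = 0.139) and without the 3 animals (adjusted p = 0.151).

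**Figure D4:**
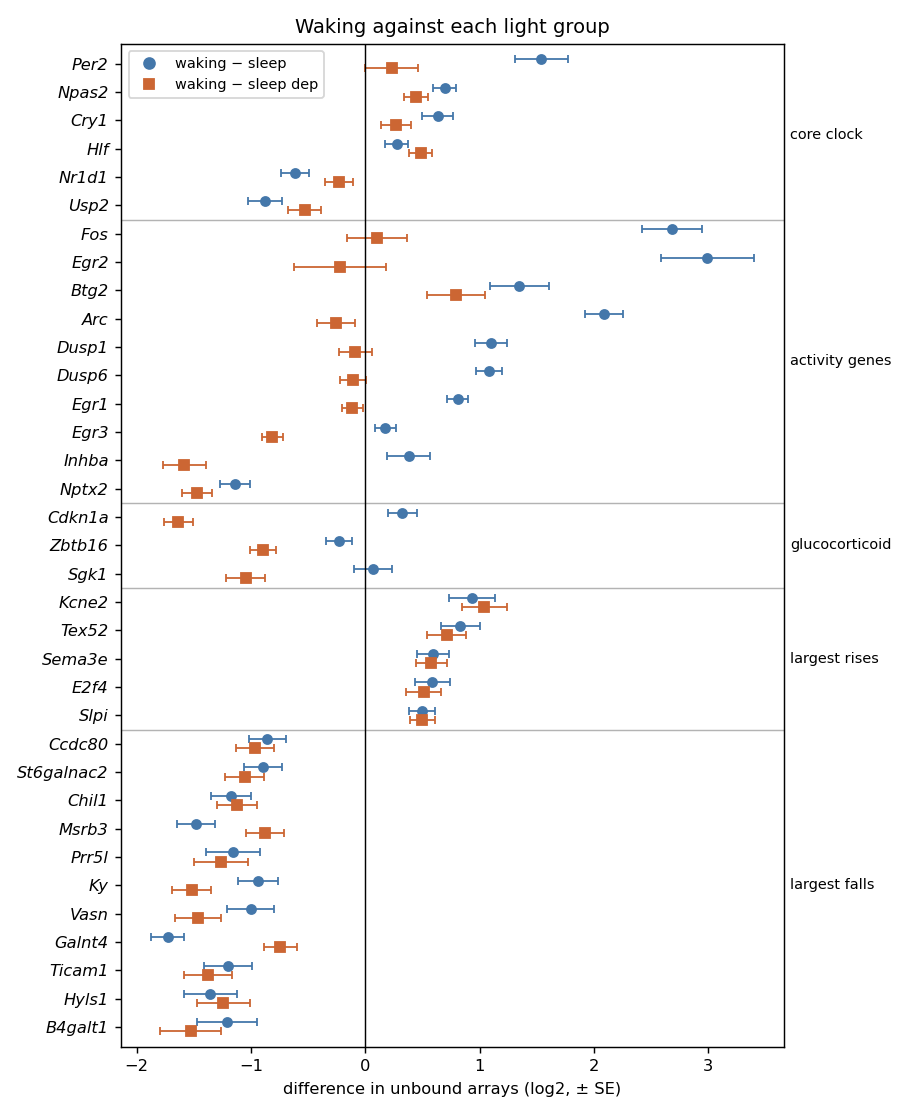
Difference of the waking arrays from sleep (circles) and from sleep deprivation (squares) in log2 units with SE, for the called clock, activity and glucocorticoid genes and for the largest changes. The squares of Fos, Arc and Egr2 lie near 0 beside circles above 2, those of Cdkn1a, Inhba and Sgk1 lie below −1 beside circles near or above 0, and both symbols of Nptx2 and of the largest rises and falls lie on 1 side of 0.

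Genes that differed from both light groups with no overlap of arrays were also taken across the whole genome. Only 6 named genes met the rule for rises, among them Npas2. Kcne2, an accessory subunit of potassium channels, lay between 5.33 and 6.22 in the light arrays and between 6.32 and 7.05 in waking. It rose by 0.99 ± 0.17 log2 (limma, adjusted p = 0.00237), or 1.09 relative to the median gene, and changed by 0.08 ± 0.11 in the bound arrays of the same animals. Sema3e, a secreted guidance cue, lay between 8.37 and 9.18 in light and between 9.20 and 9.63 in waking, a rise of 0.58 ± 0.12 (adjusted p = 0.00573). Its other 3 probe sets changed by −0.11, 0.14 and 0.47, the last of these called as well.

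Slpi, a protease inhibitor gene, rose by 0.50 ± 0.10 log2 (limma, adjusted p = 0.00451) at 5.95 to 6.41 in waking against 5.53 to 5.88 in light. Tex52 (0.77) and the cell cycle factor gene E2f4 (0.55) completed the rises, and both lost the call once the 3 animals were left out (adjusted p = 0.0525 and 0.0891). Apart from Npas2 and Sema3e, these genes lay near the middle of all probe sets, whose median was 6.02 log2 in the unbound arrays.

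Falls were more frequent as deposited: 71 of 13924 genes met the same rule, and the 12 largest lay between −1.37 and −0.91 log2. The rule used values in which the waking arrays lie lower, which favours falls. Among all genes 0.28% rose and 1.99% fell against both light groups as deposited. After centring, the pooled contrast called 224 rises and 214 falls. B4galt1, a galactosyltransferase of the Golgi, had medians of 5.66 in sleep, 6.18 in sleep deprivation and 4.72 in waking and changed by −1.37 ± 0.23 (limma, adjusted p = 0.00192), or −1.27 relative to the median gene. Galnt4 (−1.23 ± 0.13, adjusted p = 1.73e-05) and St6galnac2 (−0.98 ± 0.14, adjusted p = 0.000988) are glycosyltransferases as well. For Galnt4, sleep lay between 6.04 and 6.36, sleep deprivation between 5.08 and 5.89 and waking between 4.18 and 4.80, so that all 3 groups were apart. Its other probe sets changed by −0.35 ± 0.28 and −0.18 ± 0.28, and the second of St6galnac2 by 0.08 ± 0.15.

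The toll-like receptor adaptor gene Ticam1 (−1.29 ± 0.18), the TGF-beta trap gene Vasn (−1.23 ± 0.18) and the chitinase-like gene Chil1 (−1.15 ± 0.15) were lower with waking ranges of 4.56 to 5.45, 4.44 to 4.73 and 5.34 to 5.66. Hyls1 (−1.30), Ky (−1.23), Prr5l (−1.21), the methionine sulfoxide reductase gene Msrb3 (−1.18) and Ccdc80 (−0.91) were the others. All 12 were called after centring, without the 3 animals and in each fit that left out 1 array. They were chosen on these same arrays as large falls without overlap, so this is a description and not independent support. Second probe sets were weaker: Prr5l had 1 that was called (−0.83 ± 0.20), while those of Hyls1, Ky, Msrb3 and Ccdc80 changed by 0.04, −0.04, −0.42 and 0.08 and were not called.

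Thy1, a surface glycoprotein of neurons, gave the smallest p of the neuronal markers at a very high signal. Its log2 signal lay between 13.02 and 13.13 in sleep, between 13.05 and 13.11 in sleep deprivation and between 12.73 and 12.86 in waking. The dark arrays were below every light array by more than the spread of any group. The change was −0.30 ± 0.02 log2 (limma, adjusted p = 4.72e-07) and −0.20 relative to the median gene, where it was still called (adjusted p = 0.000186). Thy1 changed by 0.12 ± 0.05 in the bound arrays of the same animals (adjusted p = 0.209).

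Calls in lists of abundant housekeeping genes are read against the falls of all genes (7.82%) and of the brightest group of genes (19.4%). Of 28 oxidative phosphorylation genes, 0 rose and 11 fell, and 0 were called in either direction after centring. The ATP synthase subunit gene Atp5a1 led them at −0.16 ± 0.02 log2 (limma, adjusted p = 3.44e-05), with 13.56 to 13.66 in waking and 13.74 to 13.82 in light. Relative to the median gene its change was −0.07 (adjusted p = 0.0799 in centred arrays). The list's median was −0.14 log2, or −0.04 relative to the median gene.

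Ribosomal protein genes gave 0 rises and 5 falls of 19, of which Rps14 (−0.26 ± 0.03, adjusted p = 0.000122) was still called after centring. Its arrays lay between 12.51 and 12.72 in waking and between 12.79 and 12.97 in light. A second probe set of Rps14, at a similar level, changed by −0.12 ± 0.03, close to the −0.10 of the median gene. The proteasome (0 rises, 4 falls of 25), glycolysis (0 and 3 of 25) and heat shock lists (0 and 4 of 22) had 0 called falls after centring, and the proteasome list then had 1 rise. Their shares of falls as deposited were no higher than that of the brightest genes. The called heat shock genes were the chaperones Hspd1 (−0.24), Hspa4l (−0.24), Hspa4 (−0.18) and Hspa8 (−0.13), and a dim probe set of Hspa8 moved the other way by 1.19 ± 0.32. The endoplasmic reticulum list had 1 fall of 21, the chaperone Hsp90b1 (−0.29, adjusted p = 0.00493, and 0.0611 after centring). A second probe set of Hsp90b1 changed by −0.06 ± 0.07.

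Of 20 glutamate receptor genes and 24 potassium channel genes, 0 were called in either direction, with median changes of 0.03 and 0.01 log2 beside −0.10 for all genes. Relative to the median gene these medians were 0.12 and 0.11, with 17 of 20 and 17 of 24 members above it. The GABA receptor list gave 1 fall of 10, Gabrb2 (−0.17, adjusted p = 0.0406), which was called in 4 of the 18 fits that left out 1 array and not after centring (adjusted p = 0.522). Of 8 adenosine genes, 0 were called, the nearest being the adenosine-forming enzyme gene Nt5e (−0.68, adjusted p = 0.0649).

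Of 23 genes of the presynapse, 3 fell, where 7.82% of all genes and 19.4% of the brightest genes fell. Slc32a1, the vesicular transporter of inhibitory transmitters, lay between 10.61 and 11.44 in the light arrays and between 9.93 and 10.91 in waking, and changed by −0.66 ± 0.15 log2 (limma, adjusted p = 0.0101). The call was lost without the 3 animals (adjusted p = 0.0685), and a second probe set of similar level changed by −0.03 ± 0.09. Syn2 (−0.16) and Vamp2 (−0.09) lost the call after centring. Nts, the neuropeptide neurotensin, was the 1 called gene of 21 hypothalamic and arousal peptide genes. It ran from 7.71 to 8.13 in sleep, from 8.21 to 8.55 in sleep deprivation and from 7.04 to 7.99 in waking, a change of −0.67 ± 0.13 log2 (adjusted p = 0.00398) that held after centring and without the 3 animals.

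Markers of the cell types in the unbound RNA were set beside these results. The log2 of the summed linear signal of every list overlapped between waking and light. Neuron markers stood at 16.50 to 16.58 log2 in waking, 16.55 to 16.64 in sleep and 16.62 to 16.67 in sleep deprivation. Astrocyte markers had 0 called genes of 14 by the probe set that stood for each. They stood at 14.01 to 14.37 in waking beside 14.22 to 14.46 over the light groups. A dimmer probe set of the marker Gja1 changed by −0.47 ± 0.09. It was called when all were tested together (limma, adjusted p = 0.00164), while the others of Gja1 were not. Precursor, endothelial, mural and red blood cell lists also had 0 called. In bulk RNA, fewer cells of a type and less RNA per cell cannot be told apart.

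Neuron markers gave 0 rises and 5 falls of 16, where 19.4% of the brightest genes fell, and Thy1 alone was called after centring. The other 4 were Stmn2 (−0.22), Nefm (−0.18), Tubb3 (−0.16) and Map2 (−0.13), and none of these 4 was called without the 3 animals. Ppp1r1b, the striatal phosphoprotein DARPP-32, changed by −0.25 and was 1 called gene of 6 in the striatal list, but not without the 3 animals (−0.19, adjusted p = 0.176). The microglial marker Tmem119 (−0.80, adjusted p = 0.0485) was 1 of 10, was called in 3 of the 18 fits that left out 1 array and was not called without the 3 animals.

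The unbound RNA still held oligodendrocyte messages, whose summed signal averaged 14.79 log2 there and 16.73 in the bound arrays. Of 13 oligodendrocyte markers 0 rose and 4 fell, where 7.82% of all genes and 19.4% of the brightest genes fell. Mag, a myelin adhesion protein, ran from 9.52 to 10.08 in sleep, from 9.29 to 9.87 in sleep deprivation and from 9.00 to 9.49 in waking. It changed by −0.54 ± 0.11 log2 (limma, adjusted p = 0.0054), passed against both light groups and was called after centring (adjusted p = 0.0253). Opalin (−0.59), Ugt8a (−0.59) and Cnp (−0.13) were not called after centring, and their calls held in 16, 2 and 15 of the 18 fits that left out 1 array and in 0 of the 3 cases without the 3 animals. A second probe set of Ugt8a changed by 0.02 ± 0.13. As deposited, a second probe set of Cnp changed by −0.33 ± 0.05. It was called when all probe sets were tested together (limma, adjusted p = 0.000284). Another of Cnp changed by −0.25 ± 0.10 and was not called. The part of these markers in the other results was not tested.

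The bound RNA of the same animals, pulled down with oligodendrocyte ribosomes, was used only to see where the dark to light change differed. It still held neuron messages, whose summed signal averaged 15.58 log2 there and 16.60 in the unbound arrays, and astrocyte messages at 12.85 against 14.29. Their part in the comparison of the fractions was not tested. Within the bound arrays alone, waking against the mean of the light groups gave 615 called genes (4.42%). These were 308 rises (2.21%) and 307 falls (2.2%), and the median change of all genes was −0.01 log2. The change differed between the fractions, tested on the difference of the 2 arrays of each animal, in 598 genes (4.29%). It was higher in the unbound arrays for 126 (0.905%) and lower for 472 (3.39%). The median gene moved by −0.10 log2 in the unbound arrays. This shift was not taken off, so the differences given here and below carry it. After quantile normalization within each fraction 423 genes differed.

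Among clock genes, Cry1 rose more in the bound arrays (0.98, adjusted p = 0.000652) than in the unbound ones, a difference of −0.53 ± 0.15 log2 (limma, adjusted p = 0.0490). Per2 went the other way, with −0.14 in the bound arrays and a difference of 1.03 (adjusted p = 0.0398). Npas2 changed by 0.08 in the bound arrays, and its difference of 0.49 ± 0.18 did not pass (adjusted p = 0.121). Nr1d1 fell in both (−0.42 and −0.61). For Fos the changes were 1.39 and 1.40, with a difference of −0.01 (adjusted p = 0.99).

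Nptx2 (difference −1.33, adjusted p = 0.0187), Thy1 (−0.42, adjusted p = 0.000476), Kcne2 (0.90, adjusted p = 0.015) and Btg2 (1.17, adjusted p = 0.0384) differed between the fractions. B4galt1 and Msrb3 fell in the unbound arrays and rose in the bound ones by 0.64 and 0.86. The actin-associated LIM protein gene Pdlim3 did the reverse, rising by 1.16 ± 0.22 in the unbound and changing by −0.94 ± 0.13 in the bound arrays, both called.

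**Figure D5:**
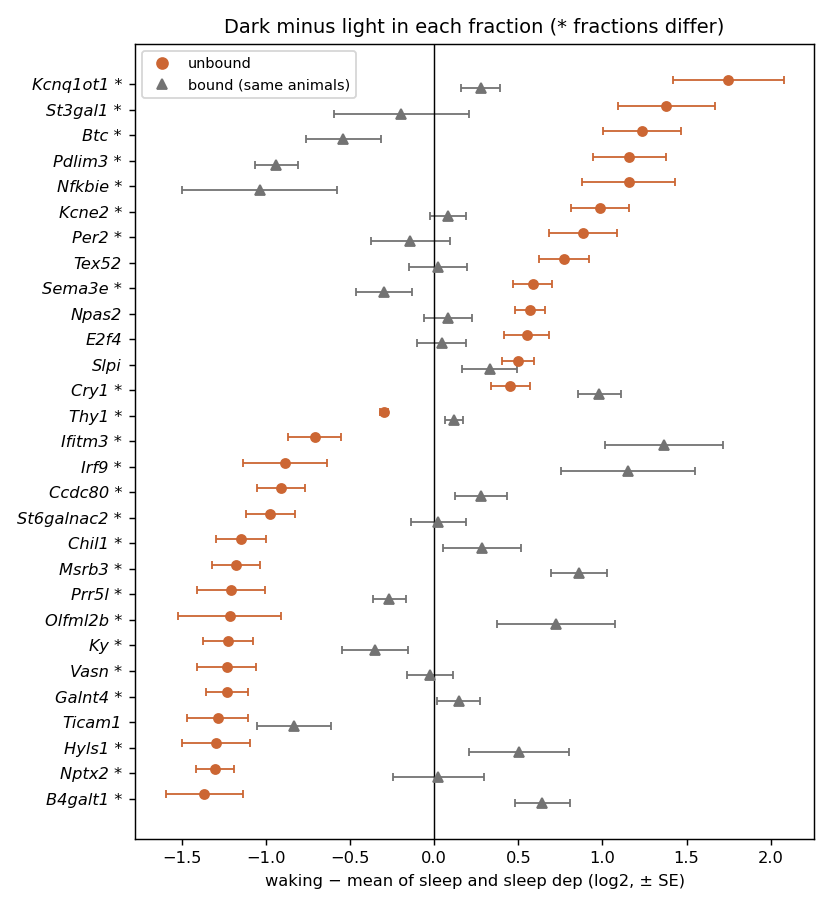
Waking minus the mean of sleep and sleep deprivation (log2, with SE) in the unbound (circles) and bound (triangles) arrays of the same animals, with an asterisk where the fractions differed at an adjusted p below 0.05. Pdlim3, B4galt1 and Msrb3 lie on opposite sides of 0, while Ticam1 is lower in both (−1.29 and −0.83).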

How the data were processed

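Gene expression was measured on Affymetrix arrays of the bound and unbound fractions of 18 animals, and the 18 unbound arrays form the comparison. Per the submitters' processing notes the authors ran RMA, and each deposited value is the log2 signal of a probe set. The version of RMA is not given in the sources read. Nothing was renormalized for the results as deposited.

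The arrays hold 45101 probe sets: 34945 have 1 gene, 932 several genes and 9160 no gene, and 64 are controls. The Entrez identifiers of 34741 probe sets matched, with 0 symbols changed. The probe set with the highest mean over the 36 arrays stood for each of 18193 genes, and 13924 were tested, those with a mean at or above the 40th percentile of probe sets in either fraction (4.47 log2 bound, 5.18 unbound). Chromosome positions and promoter windows are those of RefSeq GRCm38.p6.

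Group means of the 18 unbound arrays were fitted in limma 3.58.1 (R 4.3.3), letting the prior variance follow intensity. Waking was set against the equal-weight mean of sleep and sleep deprivation, with Benjamini-Hochberg adjustment and a call below 0.05. Changes relative to the median gene subtract the median change, and their calls come from arrays centred on their median. The fractions were compared on the difference of the 2 arrays of each animal, a pairing given by the shared label, and the deviations of these arrays correlated by −0.0032 to 0.0848 (mean 0.0458 against −0.00257 between animals). The group comparisons within a fraction are of different animals, whose numbers are only names. The fits were tested on simulated data. Values were handled with the R package data.table (1.17.8) and with Python 3.11.15, numpy 2.4.6 and pandas 2.3.3, and figures were drawn with matplotlib 3.10.9.

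Members and gene lists were chosen with earlier results of these data known. Of 496 listed genes, 449 were on the array and 437 were tested. Named genes were the up to 12 largest rises and falls called in the pooled contrast and in both arms, with no overlap of waking and light arrays and a group mean above the median probe set, skipping uncharacterised symbols. Every clock gene, up to 4 genes of each list with the smallest p, the 5 largest fraction differences per direction and the transgene's genes were added. Other called list members were named after their values were seen. Alternatives covered the normalization, the filter, the probe set, the trend, the light groups, the animals set apart by sex-linked genes, a replicate block and each array left out. Centring combined with a smaller set of animals or with 1 array left out was chosen after seeing the data.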

Additional observations from a re-analysis of the deposited data

Results flagged for a closer look

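The signal of 59 genes and the array median were examined for an animal that stood away from the 5 others of its group, over 180 groups of 6 unbound values, and 15 stood out. Chance alone gives such a gap in about 1 of 20 groups. Waking animal 3 was lowest for Fos (8.41 log2), Bhlhe40 (9.95) and Cry2 (10.6) and highest for Pdlim3 (8.46). Waking animal 4 was highest for Per2 (9.28), waking animal 1 for Olfml2b (5.91) and waking animal 5 for Ky (5.09), and waking animal 6 was lowest for Btc (3.66). Sleep animal 3 was lowest for Dusp1 (9.09) and Fbxl21 (6.01) and highest for Olfml2b (7.22). Sleep animal 1 was highest for Btc (3.98) and St6galnac2 (6.82). Sleep deprivation animal 7 was highest for Bhlhe41 (7.34) and animal 6 for Galnt4 (5.89).

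The dark to light change differed between the fractions of the same animals for 10 genes named by rule, tested with limma on the per-animal difference. It was higher in the unbound arrays by 2.19 log2 for Nfkbie, 2.10 for Pdlim3, 1.78 for Btc, 1.58 for St3gal1 and 1.47 for Kcnq1ot1. It was lower by values of −2.08 for Ifitm3, −2.04 for Msrb3, −2.04 for Irf9, −2.01 for B4galt1 and −1.94 for Olfml2b. Btc and Nfkbie averaged 3.86 and 5.02 log2 in the unbound arrays, under the unbound filter of 5.18, so they entered the test by their level in the bound arrays and the size of their change is uncertain. The other 5 probe sets of Kcnq1ot1 changed by −0.48 to −0.02 in the unbound arrays, against 1.75 for the one used. Ifitm3, Irf9 and Olfml2b were not called in the unbound arrays without the 3 animals set apart by sex-linked genes (adjusted p = 0.0688, 0.196 and 0.138).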

How the results depend on the processing

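The count of 1238 genes became 483 after quantile normalization, 438 after centring, 2583 without a filter, 814 with the 60th percentile as filter, 532 without the 3 animals set apart by sex-linked genes and 167 with centring and without them. The count of 316 genes called against both light groups became 122, 109, 866, 168, 127 and 43 in the same settings. The 438 genes called after centring became 167 without the 3 animals. Leaving out 1 array gave 898 to 1315 genes in the pooled contrast, 234 to 324 against both light groups and 305 to 444 after centring. The mean of all probe sets (1600), no intensity trend (1059) and the 12 light arrays as 1 group (842) kept the pooled count within 1.5 times, and calls against both light groups cannot be had from the last. With the replicate number as a block the pooled count was 1335 and that against both light groups 330, and all 1238 calls were kept. Without the pairing by animal, 665 in place of 598 genes differed between the fractions, and 423 after quantile normalization. Of the 91 called genes chosen by rule or added as called list members, 43 kept their call after centring and 49 without the 3 animals. In every fit that left out 1 array 60 kept it. The sign turned for Aldoa (0.00608) and Vamp2 (0.0131) after centring, and for Hspa8 (0.248), Map2 (0.020) and Rps4x (0.077) with the mean of all probe sets. The level difference of the waking arrays was −0.10 log2 by the median or the mean, over genes tested or all probe sets. The causes of these shifts were not tested. Dim genes lie near the filter, where precision is limited by signal over background.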

Other observations

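Of 6 temperature-sensitive and RNA-binding genes 0 were called in the pooled contrast, and for Cirbp and Srsf5 the light groups differed (limma, adjusted p = 0.00029 and 0.00308). Cirbp, the cold-inducible RNA-binding protein, had lowest, median and highest values of 10.93, 11.09 and 11.26 log2 in sleep, 9.86, 10.13 and 10.29 in sleep deprivation and 9.38, 10.29 and 10.58 in waking. Every sleep array lay above every array of an awake animal, in the dark or in the light. The pooled change was −0.40 ± 0.13 (limma, adjusted p = 0.054), with −0.89 against sleep (adjusted p = 0.00126) and 0.10 against sleep deprivation (adjusted p = 0.697). The splicing factor gene Srsf5 had the same order, with medians of 10.98 in sleep, 10.06 in sleep deprivation and 10.15 in waking and a pooled change of −0.37 (adjusted p = 0.114). Luc7l3, another splicing gene, was the 1 member of 6 called after centring (adjusted p = 0.0275), at 0.14 ± 0.05 as deposited (adjusted p = 0.104).

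Cholesterol genes gave 1 rise and 1 fall of 21, where 1.07% of all genes rose and 7.82% fell. Scap, which escorts the sterol-sensing transcription factors, lay between 7.32 and 8.20 in the light arrays and between 7.78 and 8.57 in waking and rose by 0.48 ± 0.14 log2 (limma, adjusted p = 0.0407). It was called in 6 of the 18 fits that left out 1 array and without the 3 animals it changed by 0.59 (adjusted p = 0.0511). Hmgcs1, an early enzyme of the pathway, changed by −0.15 ± 0.04 (adjusted p = 0.0275) and was called neither after centring nor without the 3 animals. As deposited, its other probe sets changed by −0.33 and −0.35, called when all were tested together, and by 0.03 and 0.24, not called. Among choroid plexus and ependyma genes 0 rose and 2 fell of 7, where 7.82% of all genes fell. Foxj1, a factor of ciliated cells, had medians of 6.23 in sleep, 6.79 in sleep deprivation and 5.53 in waking and changed by −1.06 ± 0.28 (adjusted p = 0.0232), and Ttr by −0.16 ± 0.04 (adjusted p = 0.0249). Neither was called after centring (adjusted p = 0.0635 and 0.389), and Foxj1 was not called without the 3 animals (−0.88, adjusted p = 0.14). As deposited, other probe sets of Ttr changed by −0.17, −0.22 and −0.29 and were called when all were tested together.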
